A study of Mus musculus with 4 samples.

Results

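D-type cyclins and the inhibitors of cyclin-dependent kinases (CDKs) set whether a cell leaves the resting phase and begins to copy its DNA. The 10 genes examined were the D cyclins Ccnd1, Ccnd2 and Ccnd3, the Cip/Kip inhibitors Cdkn1a, Cdkn1b and Cdkn1c, and the INK4 inhibitors Cdkn2a, Cdkn2b, Cdkn2c and Cdkn2d. They were taken by gene name from the non-control spots of the arrays, which gave 16 probes of 55681 and 25 spots of 59305 on each array. Of the 10 genes, 8 had a probe that stood well above background on 2 or more arrays and were tested, among 17362 genes in all. Cdkn1a and Cdkn2a did not reach that level.

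The series compared cells freshly sorted by flow cytometry from the submandibular salivary gland of C57BL/6 mice aged 8 to 10 weeks. The groups were stem cells and non-stem cell epithelia, each with 2 one-colour Agilent arrays, which lay on 1 slide and were read in 1 scan. The labels name no transgene, deletion or treatment in either group and give no sorting antigens. Whether replicates came from separate mice is not given, so the spread among these 4 samples could be technical. Each limma p-value and standard error rests on that spread, drawn by the fit toward the typical spread of all genes tested.

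D cyclins bind CDK4 and CDK6, and the complexes phosphorylate the retinoblastoma protein, which releases E2F transcription factors that switch on genes of DNA synthesis. INK4 proteins bind CDK4 and CDK6 and keep D cyclins from them, whereas Cip/Kip proteins bind whole cyclin and CDK complexes, mainly those of CDK2. In many tissues p27, p57 and the INK4 proteins are known for holding stem and progenitor cells at rest or for marking their exit from the cycle, and D cyclins are switched on by growth factor signals.

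The Cdkn2a and Cdkn2b genes lie side by side and are known for their joint silencing in young tissue, and Cdkn1b had probes that differed, so the 250 bases upstream of their RefSeq transcription starts (build GRCm38.p6) are shown. Of the 10 members, 7 had such a window, with 11 windows among them. Capitals mark an E2F motif (TTTCCCGC or TTTGGCGC) or a GC box (GGGCGG), searched on both strands. The Cdkn2a gene has a pair of starts, and the upstream one lies at chr4:89294620-89294869 and the downstream one at chr4:89282193-89282442, both on the minus strand. The Cdkn2b window is chr4:89311033-89311282 on the minus strand and that of Cdkn1b is chr6:134920151-134920400 on the plus strand.
Cdkn2a, upstream start: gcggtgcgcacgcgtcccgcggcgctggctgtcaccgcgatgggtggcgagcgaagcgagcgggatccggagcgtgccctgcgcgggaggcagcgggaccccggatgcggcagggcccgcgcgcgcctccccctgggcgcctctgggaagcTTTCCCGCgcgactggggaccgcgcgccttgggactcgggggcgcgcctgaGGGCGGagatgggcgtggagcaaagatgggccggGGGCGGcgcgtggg
Cdkn2a, downstream start: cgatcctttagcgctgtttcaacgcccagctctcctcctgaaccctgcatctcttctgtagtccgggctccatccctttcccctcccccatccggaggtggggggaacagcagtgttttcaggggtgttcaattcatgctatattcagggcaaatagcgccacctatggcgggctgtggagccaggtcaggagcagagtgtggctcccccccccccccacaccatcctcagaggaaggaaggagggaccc
Cdkn2b: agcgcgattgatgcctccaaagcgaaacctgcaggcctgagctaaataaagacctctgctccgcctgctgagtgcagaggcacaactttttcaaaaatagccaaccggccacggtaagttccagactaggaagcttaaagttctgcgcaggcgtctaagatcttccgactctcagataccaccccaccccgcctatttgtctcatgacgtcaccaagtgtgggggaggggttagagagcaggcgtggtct
Cdkn1b: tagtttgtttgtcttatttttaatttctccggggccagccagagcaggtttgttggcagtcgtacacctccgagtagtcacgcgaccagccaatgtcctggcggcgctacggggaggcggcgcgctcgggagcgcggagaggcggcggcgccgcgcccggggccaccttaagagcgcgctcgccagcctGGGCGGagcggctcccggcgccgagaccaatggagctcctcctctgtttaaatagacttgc
An E2F motif was present in 1 of the 11 windows, that of the upstream Cdkn2a start, against 1.3% of the 32817 windows of all genes, and a GC box was present in 7 of the 11, against 32.7% of all windows. The upstream Cdkn2a window held 2 GC boxes, the Cdkn1b window 1, and the downstream Cdkn2a and the Cdkn2b windows held 0. A match describes letters only and does not show that a factor binds there.

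Levels below are log2 signals from which the array's 75th percentile was subtracted, so that 0 is that percentile, and each member is represented by its brightest tested probe. Differences are stem cells minus non-stem cell epithelia, given ± the standard error of the limma fit. A gene rose or fell where its limma p-value, adjusted by the Benjamini-Hochberg method over all genes tested, was under 0.05. By that rule 2 of the 8 tested members rose in stem cells, Ccnd2 and Cdkn1c, and 0 fell. Among all genes tested 14.1% rose, 16.8% fell and 30.9% did either. At an unadjusted limma p under 0.05 the count of members that fell was also 0 by the brightest probe. The share of all genes at that threshold was not counted, so that count is not read as a result about the members. The second Ccnd3 probe was lower at that threshold (-0.55, unadjusted p = 0.024 by limma over probes). The median difference was 0.29 over the 8 members and -0.01 over all genes. The 8 members include 6 whose groups of arrays did not overlap, and the same held for 71% of all genes.

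**Figure D1:**
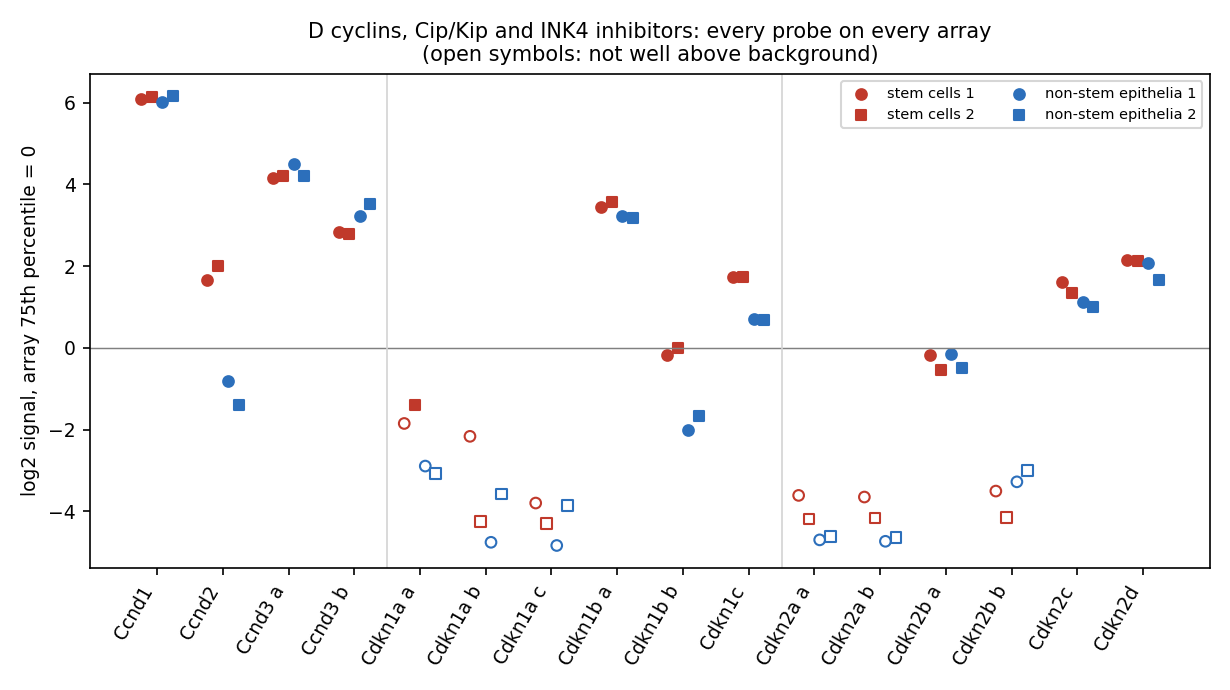
Log2 signal of all 16 probes of the 10 genes on each of the 4 arrays (vertical axis, 75th percentile of the array set to 0). Red points are stem cells, blue points non-stem cell epithelia, circles and squares replicates 1 and 2, and open symbols are probes not well above background; letters mark the probes of one gene. Ccnd2 and the second Cdkn1b probe show the widest gaps between groups among probes above background on all 4 arrays.

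The 4 arrays differed in overall brightness, which bears on each value. The 75th percentile of signal was lower for stem cells (30.4 and 43.3) than for non-stem epithelia (74.8 and 63.0), and 34.6% to 41.3% of probes were well above background. Arrays of one group correlated at 0.984 and 0.991 over probes, and arrays of different groups at 0.922 to 0.935. Spike-in control RNA stood 7.73 and 7.27 above the percentile for stem cells, with 5.46 and 5.03 for the non-stem epithelia. Scaling to it would shift every difference by -2.26, those of all genes and lists alike, and why the spike-ins differ was not tested. The differences here are therefore relative to the array's own percentile. Among tested genes past the threshold, 45.7% were higher in stem cells. With the percentile taken over detected probes the share was 59.3%, and the median gene shifted by 0.14. After normexp background correction the share was 25.3%, and the median gene shifted by -0.28. For normexp, 50 was added to each corrected signal, more than the 75th percentile of either stem cell array (30.4 and 43.3). The part of this offset in the normexp results was not tested. Values of members under those settings are given as fitted, with the value relative to the shift beside those whose sign or call changed. Normexp did not shift all genes alike, so a value relative to its shift is a distance from the median gene only.

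Markers of other cell types moved with the comparison. Of the 10 basal duct and myoepithelial markers tested, 6 rose and 0 fell, with a summed linear signal of 214 and 221 for stem cells, with 86.4 and 91.6 for the non-stem epithelia. Krt14, a basal keratin, rose by 3.16 ± 0.16 (adjusted p = 0.00032 by limma). Of the 10 acinar markers 0 rose and 6 fell, with sums of 5271 and 5024 against 11325 and 12286. Of the 8 granular convoluted tubule markers 5 rose and 1 fell, with sums of 1877 and 1881 against 353 and 349, and of the 9 tested markers of other ducts 6 rose and 0 fell, with sums of 1551 and 1543 against 966 and 942. Of the 7 general epithelial markers 2 rose and 2 fell, with sums of 1545 and 1605 against 1054.5 and 1031. All 4 tested red blood cell genes fell, with sums of 43.6 and 44.5 against 181 and 225. Of the fibroblast markers 2 of 7 were tested and 1 rose, Dcn, with sums of 21.0 and 22.8 against 8.95 and 9.44. The mast cell markers tested were 2 of 6, of which 1 rose and 1 fell, with sums of 3.50 and 3.84 against 5.38 and 13.8. Schwann and nerve cell markers were tested for 3 of 5, of which 1 rose and 1 fell, with sums of 13.6 and 12.9 against 23.0 and 26.1. Of the white blood cell markers 4 of 8 were tested and 1 rose, with sums of 86.3 and 66.3 against 41.9 and 47.5, and Ptprc, the pan-leukocyte antigen, was not well above background. The endothelial markers tested were 5 of 10, of which 2 rose and 1 fell, with sums of 19.2 and 15.5 against 23.9 and 25.7, and Cdh5 was among those not tested. In sorted bulk samples, fewer cells of a type and less RNA per cell cannot be told apart, and the part of these markers in the results on the members was not tested.

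Ccnd1 encodes cyclin D1, the D cyclin best known as a target of Wnt and growth factor signals. Its probe (A_66_P111562, chr7:152116202-152116261, minus strand, mm9) read 6.08 and 6.15 for stem cells, with 6.02 and 6.16 for the non-stem epithelia. The groups overlapped entirely. The difference was 0.02 ± 0.15 (95% interval -0.37 to 0.41, n = 2 per group, adjusted p = 0.93 by limma), and after normexp background correction it was -0.43 (adjusted p = 0.044), or -0.16 relative to the shift of the median gene.

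Ccnd2 encodes cyclin D2, which is tied to cell cycle entry in many progenitor and endocrine cells. Its probe (A_52_P53906, chr6:127098696-127098755, minus strand) read 1.66 and 2.01 in stem cells, with -0.81 and -1.41 in the non-stem epithelia. Both stem cell arrays lay well above both non-stem arrays, and the gap between groups exceeded the spread within each. The rise was 2.95 ± 0.25 on the log2 scale, 7.72-fold (95% interval 2.31 to 3.58 in log2, n = 2 per group, adjusted p = 0.0013 by limma). Over the 14 alternatives tested the difference ran from 1.40, with normexp, to 3.25, and passed the threshold in all 14, with a highest adjusted p of 0.020. The alternatives were not all separate checks of Ccnd2. The 2-fold minimum reused the main fit, averaging used its only probe, and the deposited values gave 2.95. On the spike-in scale the difference of Ccnd2 was 0.69.

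Ccnd3 encodes cyclin D3, the member linked most to lymphoid and muscle cells. Its brighter probe (A_55_P2041075, chr17:47736579-47736638, plus strand) read 4.15 and 4.21 in stem cells, with 4.49 and 4.22 in the non-stem epithelia. The second probe (A_51_P238448, chr17:47736267-47736326), within 372 bases of it, read 2.83 and 2.79 against 3.22 and 3.52. Both probes were lower on the 2 stem cell arrays than on the 2 non-stem arrays, and neither difference passed the threshold. The brighter probe differed by -0.17 ± 0.17 (95% interval -0.60 to 0.25, adjusted p = 0.47 by limma) and the second by -0.55 ± 0.18 (adjusted p = 0.069 by limma over probes). With normexp the brighter probe was called lower, at -0.59 (adjusted p = 0.017), or -0.31 relative to the shift.

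The D cyclins were also compared within each array, where the scale of the array cancels. The log2 ratio of the Ccnd2 to the Ccnd1 signal differed between groups by 2.93, and by 1.84 after normexp. The ratio of Ccnd2 to Ccnd3 differed by 3.12, and by 2.00 after normexp. The groups did not overlap in either ratio, and the exact two-sided permutation test gave p = 0.333, the smallest that 2 arrays against 2 allow. A ratio shows unequal change between the genes and not that one of them did not change.

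**Figure D2:**
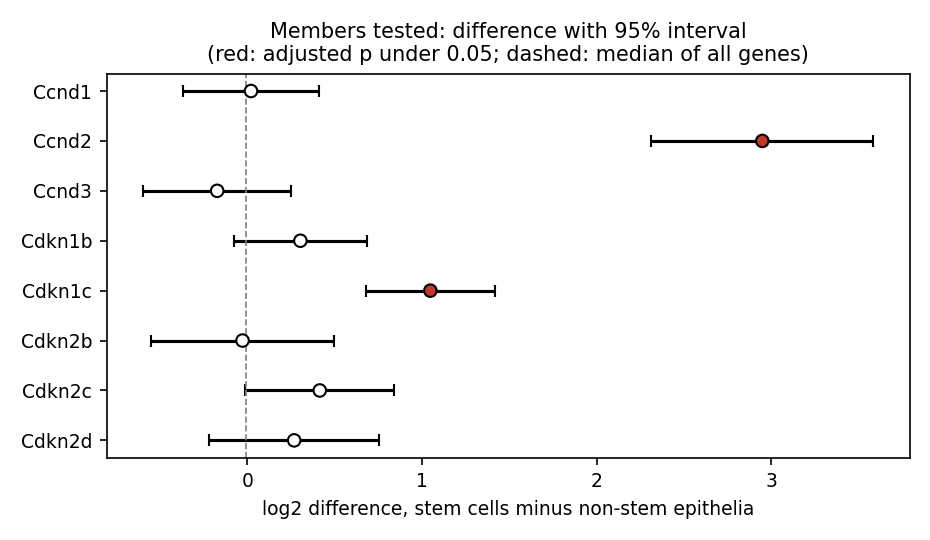
Log2 difference between stem cells and non-stem cell epithelia (horizontal axis) with its 95% interval for the 8 tested members. Red points passed an adjusted p under 0.05, and the dashed line is the median over all genes tested; the intervals of Ccnd2 and Cdkn1c lie above 0 and those of the other 6 include 0.

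Cdkn1a encodes p21, the inhibitor induced by p53 after DNA damage. Its main probe (A_51_P363947, chr17:29237377-29237436, plus strand) was printed in 10 spots, of which 8 to 10 per array were usable. It read -1.85 and -1.40 in stem cells, with -2.90 and -3.08 in the non-stem epithelia. The spots were well above background on 1 array only, stem cells replicate 2, where 10 of 10 passed, while 0 of 9, 0 of 8 and 1 of 10 passed on stem cells replicate 1 and non-stem replicates 1 and 2. The SD among spots was 0.33, 0.27, 0.22 and 0.77 on the 4 arrays in that order. The mean on stem cells replicate 1 lay below the lowest signal counted as above background there (-1.65), so the level of Cdkn1a was measured on a single array and no fold or test is given. The other 2 Cdkn1a probes (chr17:29235299-29235358 and chr17:29227986-29228045) stood well above background on 0 of the 4 arrays.

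**Figure D3:**
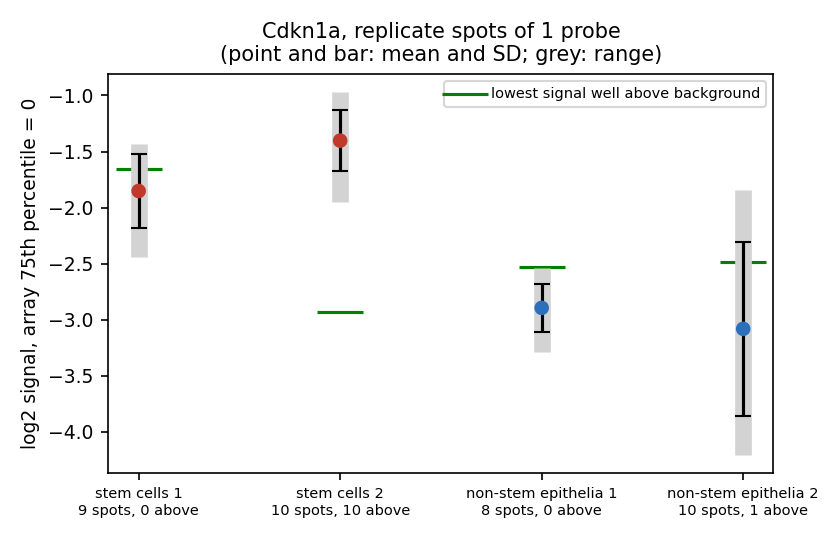
Log2 signal of the Cdkn1a probe printed in 10 spots, with the mean (point), the SD (black bar) and the range (grey) over usable spots on each array, on the scale where the 75th percentile is 0. Green lines mark the lowest signal of any probe called well above background on that array; the mean lies above it on stem cells replicate 2 only.

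Cdkn1b encodes p27, which holds cells in the resting phase and is removed by the ubiquitin system at S phase. Its brighter probe (A_55_P2026562, chr6:134875424-134875483, plus strand) read 3.44 and 3.57 in stem cells, with 3.22 and 3.19 in the non-stem epithelia. Its second probe (A_52_P673863, chr6:134873606-134873665), with 1878 bases from the first start to the last end of the pair, read -0.18 and 0.01 against -2.01 and -1.67. Neither probe had groups that overlapped, but the sizes differed.
The brighter probe, which represents the gene, differed by 0.30 ± 0.15 (95% interval -0.08 to 0.69, adjusted p = 0.19 by limma). The second probe rose by 1.75 ± 0.19 (adjusted p = 0.0038 by limma over the 22642 probes tested, of which 12.9% rose and 15.9% fell). Averaging the probes gave 1.03 (adjusted p = 0.0089), so the call for p27 mRNA depended on the probe taken. The within-array ratio of the brighter to the dimmer probe differed between groups by -1.45, and by -0.83 after normexp (exact two-sided permutation p = 0.333, the smallest possible). With normexp the brighter probe gave -0.13, which is 0.15 relative to the shift.

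Cdkn1c encodes p57, an inhibitor expressed from the maternal allele and known in tissue stem cells that rest. Its probe (A_51_P339540, chr7:150644753-150644812, minus strand) read 1.74 and 1.74 in stem cells, with 0.71 and 0.68 in the non-stem epithelia. The groups were apart by far more than the replicates of either. The rise was 1.05 ± 0.15, 2.07-fold (95% interval 0.68 to 1.42 in log2, n = 2 per group, adjusted p = 0.0061 by limma). The call was lost without the filter on dim probes (adjusted p = 0.068) and without non-stem replicate 2 (adjusted p = 0.059), with the value at 1.05 and 1.03. Over the 14 alternatives it ran from 0.48, with normexp (adjusted p = 0.021), to 1.19, and on the spike-in scale, where every difference moves by the same amount, it was -1.21. The probe shares a run of 16 bases with the probe of another gene, Zfp706. The within-array ratio of Cdkn1c to the brighter Cdkn1b probe differed by 0.74 between groups, and by 0.61 after normexp (exact two-sided permutation p = 0.333).

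The INK4 genes began with Cdkn2a, which encodes p16Ink4a and, from a separate first exon, p19Arf, an activator of p53. Its probes (chr4:88920543-88920602 and chr4:88920405-88920464, minus strand) stood well above background on 0 of the 4 arrays. Cdkn2b encodes p15, an inhibitor induced by TGF-beta, and lies beside Cdkn2a, with 32375 bases from the first to the last of the probes of both genes. Its brighter probe (A_55_P1988183, chr4:88952276-88952335) read -0.17 and -0.53 in stem cells, with -0.16 and -0.49 in the non-stem epithelia. The values of the groups interleaved.
The difference was -0.03 ± 0.21 (95% interval -0.55 to 0.50, adjusted p = 0.93 by limma). The other Cdkn2b probe (chr4:88952720-88952779) stood well above background on 0 of the 4 arrays.

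Cdkn2c encodes p18, an INK4 protein known to limit the expansion of blood stem cells. Its probe (A_55_P2074796, chr4:109333508-109333567, minus strand) read 1.60 and 1.34 in stem cells, with 1.12 and 0.99 in the non-stem epithelia. Both stem cell arrays were the higher, by a margin near the spread between them. The difference was 0.41 ± 0.17 (95% interval -0.01 to 0.84, adjusted p = 0.12 by limma). Cdkn2d encodes p19Ink4d, which varies over the cell cycle. Its probe (A_55_P2022251, chr9:21092934-21092993, minus strand) read 2.16 and 2.13 in stem cells, with 2.08 and 1.66 in the non-stem epithelia. The stem cell arrays lay above both non-stem arrays, one of them by little. The difference was 0.27 ± 0.20 (95% interval -0.22 to 0.76, adjusted p = 0.34 by limma), and with normexp it was -0.07, or 0.21 relative to the shift.

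The probes were 60 bases long, had a GC content of 33.3% to 55% and shared at most 9 bases in a row between members.

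**Figure D4:**
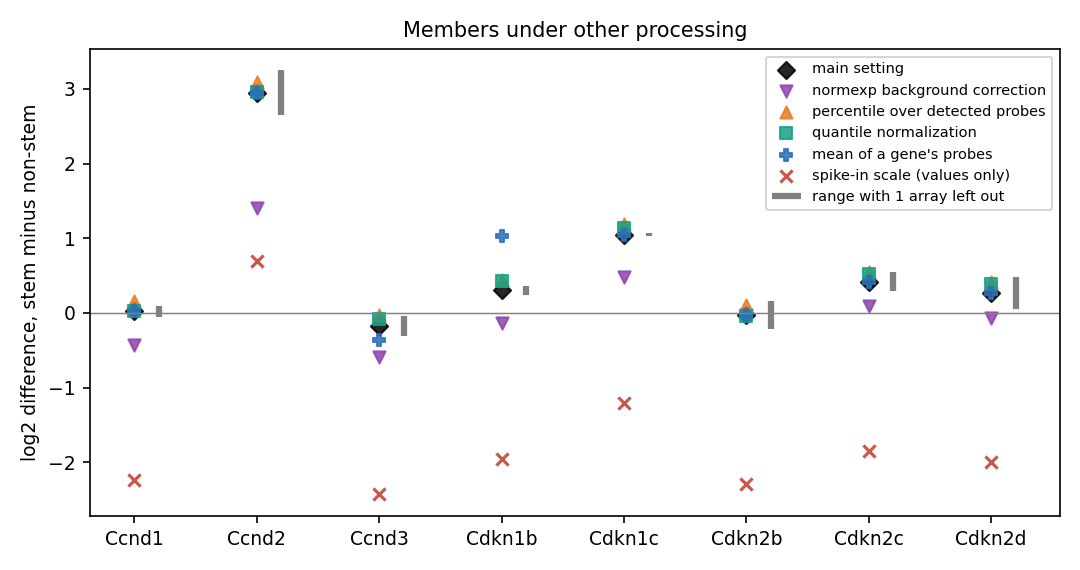
Log2 difference (vertical axis) of the 8 tested members under the setting reported and other processing, with the range over 4 fits that each leave out 1 array as a grey bar. Ccnd2 stays above 0 under every setting plotted. With normexp, which moved the median gene by -0.28, Ccnd1, Cdkn1b and Cdkn2d turn below 0. Ccnd3 and Cdkn2b lie below 0 both with normexp and in the setting reported. On the spike-in scale (values with no test) every member but Ccnd2 is below 0.

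The partners of D cyclins and the later cyclins were tested for 13 of 18 genes, of which 5 rose and 3 fell, with a median of 0.38 (limma, adjusted p under 0.05 as before). With either non-stem array left out, the count that rose was 2, and without the filter on dim probes 2 of 18 rose and 1 fell. Ccnb1, a mitotic cyclin, read -0.44 and 0.17 in stem cells and was at least 5.19-fold lower in the non-stem epithelia, where its signal was not well above background. Ccnb2 rose by 2.07 ± 0.26. Cdk7, the kinase that activates other CDKs, fell, and was not well above background on either stem cell array. It was 3.02-fold lower there as measured, which is not a lower bound. After normexp its difference was -0.33 (adjusted p = 0.089 by limma). Cdc25a, the phosphatase that frees CDKs of inhibitory phosphate, fell by 1.27 ± 0.17. With only probes above background on all 4 arrays kept, which leaves out Ccnb1 and Cdk7, 5 of 11 genes rose and 2 fell. For this list and those below, the background is the count over all genes in the same setting. Under that filter 2891 of 14395 genes rose and 2803 fell. Without the filter on dim probes 841 of 36280 rose and 765 fell, and with normexp 1602 of 17362 rose and 4735 fell. Chosen after their values were seen, Cdk4, the main partner of D cyclins, rose by 0.91 ± 0.16 (adjusted p = 0.011, 0.080 after normexp, limma), Ccna2 rose by 1.99 ± 0.29 and Cdk2 fell by 1.11 ± 0.15. Other Cdk4 probes gave 0.76 ± 0.16 and 0.38 ± 0.23 (adjusted p = 0.022 and 0.27 by limma over probes), and the latter did not pass. Cdk6 and Cdk1 were not tested, because no probe was well above background on 2 arrays.

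Of the retinoblastoma family, E2F and DREAM genes, 19 of 21 were tested, 5 rose and 0 fell, with a median of 0.32. With normexp 4 rose and 2 fell, and without non-stem replicate 1 or 2 the counts that rose were 2 and 1. Without the filter on dim probes 1 of 21 rose. E2f1, an activator of S phase genes, rose by 1.67 ± 0.23, Lin9, a DREAM core subunit, by 1.21 ± 0.24, Rbl1, which encodes the pocket protein p107, by 0.91 ± 0.16, and Mybl2, a driver of G2 genes, by 0.81 ± 0.15. Rb1, chosen after its value was seen, differed by 0.32 ± 0.17 (adjusted p = 0.20 by limma). Of the known E2F targets of S phase, 19 of 22 were tested, 14 rose and 1 fell, with a median of 1.09. With normexp 13 rose and 0 fell, without the filter on dim probes 3 of 22 rose and 0 fell, and without non-stem replicate 1 or 2 the counts that rose were 8 and 7. Uhrf1, a reader of newly copied DNA methylation, rose by 2.44 ± 0.15, the replicative helicase subunits Mcm3 and Mcm6 by 1.83 ± 0.16 and 1.62 ± 0.15, and Tk1, which makes thymidine monophosphate, by 1.23 ± 0.15. Slbp, the histone mRNA binding protein, fell by 0.72 ± 0.19, but its second probe gave 0.17 when only probes above background on all 4 arrays were kept. Mki67, a marker of cycling cells, rose by 2.45 ± 0.16.

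For the genes that turn over D cyclins and p27, 19 names were listed, 17 were on the array (not Skp1a or Kpc1) and 16 were tested. Of the genes tested 2 rose and 2 fell, with a median of -0.07, and with normexp 2 rose and 8 fell. With either non-stem array left out, the count that fell was 0, and without the filter 1 of 17 rose and 0 fell. Dtl, a substrate receptor of the CUL4 ligase, read -0.81 and -1.23 in stem cells, at least 2.81-fold above non-stem cell epithelia, where its signal was not well above background. Cks2 was at least 2.06-fold higher on the same reading. Dtl and Cks2 thus passed the filter through the stem cell arrays alone. With only probes above background on all 4 arrays kept, 14 genes of the list were tested, 0 rose and 3 fell. Cks1b, the cofactor of SKP2 in destroying p27, fell by 0.67 ± 0.17 and Cul4a by 0.57 ± 0.16. Both calls were lost with quantile normalization (adjusted p = 0.061 and 0.075, limma). Skp2, chosen by name after its value was seen, was not tested.

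Regulators known to act on CDK inhibitor genes were tested for 30 of 35, of which 13 rose and 2 fell, with a median of 0.33. With either non-stem array left out, the count that rose was 7, and without the filter 5 of 34 rose and 0 fell. Tbx2, a repressor of Cdkn2a and Cdkn1a, read -0.69 and -0.43 in stem cells, at least 3.86-fold above non-stem cell epithelia, where it was not well above background. Klf6, an activator of Cdkn1a, rose by 2.16 ± 0.18, Id1, a dominant negative partner of basic helix-loop-helix factors, by 1.83 ± 0.17, and Ets1, an activator of Cdkn2a, was at least 3.58-fold higher. Trp73, a p53 relative, read -1.25 and -2.16 in stem cells, the second not well above background, with -0.06 and 0.74 in the non-stem epithelia. It was called lower, but not without non-stem replicate 2 (-1.64, adjusted p = 0.11 by limma) or without the filter (adjusted p = 0.074), and another Trp73 probe, not tested, stood above background on a stem cell array only. Ring1, a Polycomb subunit, fell by 0.80 ± 0.22, without a call after normexp (adjusted p = 0.35 by limma). With only probes above background on all 4 arrays kept, which leaves out Tbx2 and Ets1, 12 of 27 regulators rose and 1 fell. Over all 14395 genes under that filter, 2891 rose and 2803 fell. Genes chosen after their values were seen were Trp53, which rose by 1.05 ± 0.16, Ezh2, which rose by 0.88 ± 0.21 but not after normexp (0.43, adjusted p = 0.056 by limma), Mdm2 with 0.04 ± 0.15 and Bmi1 with -0.35 ± 0.16, neither of which passed the threshold.

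Imprinted genes, the group that includes neighbours of Cdkn1c, were tested for 11 of 19, of which 2 rose and 4 fell, with a median of -0.66. That median depended on the setting. It was -0.045 with only probes above background on all 4 arrays kept, where 3 of 8 genes rose and 3 fell. It was 0.02 without the filter on dim probes and -0.15 without stem cells replicate 1. With either non-stem array left out, the count that fell was 2, and without the filter 1 of 19 rose and 1 fell. Kcnq1, beside Cdkn1c, rose by 2.75 ± 0.17, and Kcnq1ot1, the RNA that silences the paternal copies of the cluster (chosen after its value was seen), differed by 0.63 ± 0.20 (adjusted p = 0.061 by limma). Meg3, a noncoding RNA of another imprinted cluster, fell by 4.33 ± 0.16 and Igf2r by 0.84 ± 0.17. Plagl1, a transcription factor that itself belongs to the upstream regulators, rose by 1.13 ± 0.16, though its probes disagreed. Of the 3 genes beside Cdkn2a and Cdkn2b, 2 were tested. Mtap fell, and was 1.84-fold lower as measured in stem cells, where it was not well above background. Its normexp difference was -0.05 (adjusted p = 0.79 by limma). With only probes above background on all 4 arrays kept, 0 of the 3 were tested.

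Of the 35 genes outside the members that are named here with a call, 14 kept it under every alternative that gave them a value. Calls lost numbered 20 without the filter on dim probes, 7 with normexp, 13 without non-stem replicate 1 and 15 without non-stem replicate 2. Those lost without one or the other non-stem array were Cdk4, Cdk2, Ccna2, Rbl1, Mybl2, Lin9, Slbp, Cks1b, Cks2, Cul4a, Trp53, Trp73, Ring1, Ezh2, Plagl1, Igf2r and Mtap. Without stem cells replicate 1 the calls of Cul4a and Slbp were lost, and without replicate 2 those of Ring1 and Mtap.

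**Figure D5:**
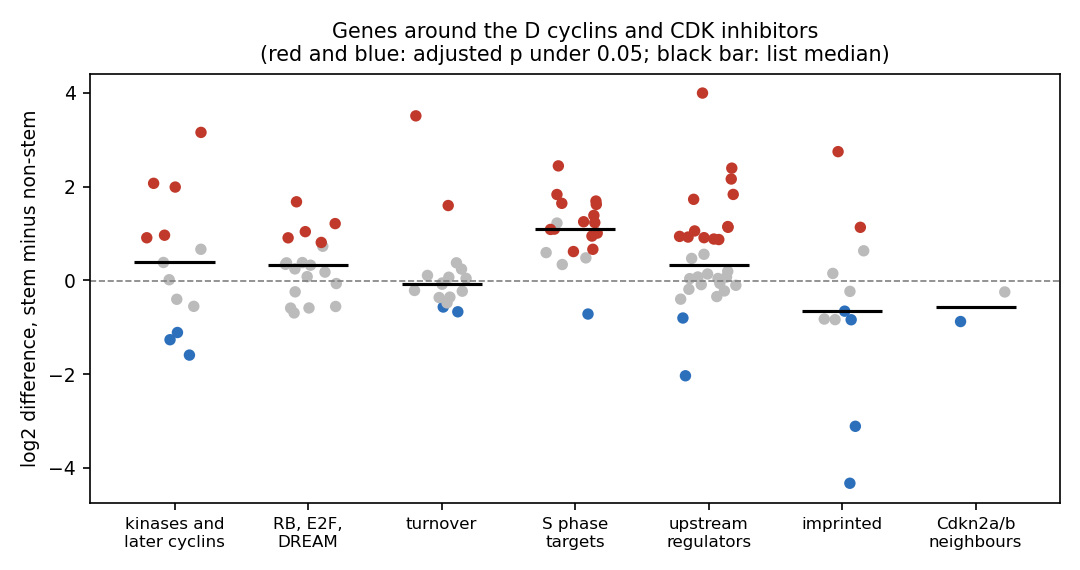
Log2 difference (vertical axis) of each tested gene in 7 lists around the D cyclins and CDK inhibitors. Red points rose and blue points fell at an adjusted p under 0.05, and grey points did not pass. Black bars are list medians and the dashed line is the median over all genes. The list of S phase targets has a median of 1.09. That of the imprinted genes is -0.66, and -0.045 with only probes above background on all 4 arrays kept.

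The genes with the most similar profiles were found by the Euclidean distance between log2 profiles centred on the mean of the 4 arrays, among 10014 genes above background on all 4. For Ccnd2 they were Hunk, a kinase (distance 0.18), Col4a6, a basement membrane collagen (0.19), and Maff, a small Maf factor (0.23). For Cdkn1c they were Add3 (0.037), Hipk1 (0.049) and F2r (0.060). With 4 arrays in 2 groups, such likeness rests mostly on the difference between groups. None was sought for INK4 genes, since 0 of them passed the threshold.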

How the data were processed

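RNA from 4 sorted cell samples was measured on one-colour Agilent arrays. Spot intensity in the deposited scanner files is linear and was background-corrected by Feature Extraction 10.7.3.1 per the file headers, with probe coordinates on mm9; the submitters' processing notes name version 9.1, and the difference was not resolved. The authors' deposited series table holds log2 values whose centring is not stated. Its column medians were -0.27 and -0.55 for stem cells and -0.83 and -0.75 for non-stem cell epithelia. Its differences between the replicate 1 arrays correlated at 1 with those of the scanner files, so log2 scale and direction are known. With these values the median gene moved by only -0.001 from the percentile scaling used here. The deposited values are therefore not a separate check of that scaling.

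Control and outlier spots were left out, spots of a probe averaged, and each array's 75th percentile over probes was subtracted from its log2 signals. Probes well above background on at least 2 of 4 arrays were tested. RefSeq accessions named 26582 probes and 29099 kept the array's name. Groups were compared with limma 3.58.1 in R 4.3.3 (lmFit, eBayes, two-sided, Benjamini-Hochberg over all genes, 5.53 degrees of freedom in all). The test was checked on simulated data. The number of arrays limits the precision.

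The members and lists were chosen with earlier results of these data known. Named were all members, up to 4 genes per list with the smallest p, up to 2 against their list's majority, 3 nearest profiles per class, and Mki67 and Krt14. The deviations of the replicate 1 arrays from their group means correlated at -0.079 between groups. Alternatives covered normalization, background, filter, variance model, probe choice, replicate block, a 2-fold minimum and each array left out, plus a spike-in scale added after seeing the data. The mm9 exon and UTR annotation was not used here.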

Additional observations from a re-analysis of the deposited data

How the results depend on the processing

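The 4 arrays and 5.53 degrees of freedom limit every value. Ccnd2 passed in all 14 tested alternatives, not all of which were separate checks of it. Over all genes, 2454 rose and 2919 fell. With normexp background correction 1602 rose and 4735 fell, and requiring at least 2-fold 1226 and 1667. Without the filter on dim probes 36280 genes were tested instead of 17362, with all 10 members among them, and 841 rose and 765 fell. Fits that each dropped 1 array gave 688 to 2875 genes higher and 903 to 3564 lower, the lowest counts without non-stem replicate 2. Of the members, 2 rose and 0 fell; normexp made 2 fall (Ccnd1 and Ccnd3), no filter left 1 higher, and leaving out each array gave 1 to 2 higher and 0 lower. Averaging probes made 3 higher.

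The replicate number as a block gave 2367 genes higher and 2965 lower, with 2 members higher and 0 lower. The labels give no sign that the numbers pair samples, so the block is given only as a check.

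Signs turned for members that had passed no threshold. With normexp the differences were -0.43 for Ccnd1, -0.13 for Cdkn1b and -0.067 for Cdkn2d. Relative to the median gene, which normexp moved by -0.28, they were -0.16, 0.15 and 0.21, and Cdkn2b was 0.25 on that footing. Normexp did not move all members alike. Ccnd1 went from 0.02 to -0.43, while Cdkn2b stayed at -0.03. A value relative to the median gene therefore does not settle a sign. Cdkn2b was 0.11 with the percentile over detected probes, or -0.03 relative to its shift of 0.14. Leaving out stem cells replicate 2 gave -0.012 for Ccnd1 and 0.15 for Cdkn2b, and leaving out non-stem replicate 1 gave -0.049 and 0.14. Over the fits that dropped 1 array Ccnd1 ran from -0.049 to 0.090 and Cdkn2b from -0.21 to 0.15. On the spike-in scale, which moves every gene by -2.26, Ccnd1 was -2.24, Cdkn1b -1.95, Cdkn1c -1.21, Cdkn2c -1.84 and Cdkn2d -1.99, and Cdkn1c is the called member whose sign this turns. The causes were not tested.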
